A study of Rattus norvegicus with 6 samples.

Results

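The genes examined here encode the proteins of the mitochondrial ribosome that carry the names *Mrpl* (mitochondrial ribosomal protein, large subunit) or *Mrps* (small subunit) followed by a number. They were chosen by name alone, with no use of their values, and the rule found 69 of the 17337 gene names in the deposited expression tables, 41 *Mrpl* and 28 *Mrps* genes. PolyA-selected RNA was sequenced from neural progenitors of the cerebral cortex of Sprague Dawley rats at embryonic day 14. The cells had been grown in Knockout DMEM/F-12 with StemPro Neural Supplement, GlutaMAX, 20 ng/ml of bFGF and 20 ng/ml of EGF, and were harvested after the second passage. There was 1 condition, with no treatment or genotype named, and 2 biological replicates, A and B, each sequenced as 2 technical libraries (A1 and A2, B1 and B2). The comparisons are therefore between members, between gene lists and between replicate cultures. A culture is a model of the tissue only as far as passaged, growth-factor-driven cells resemble it, and the labels do not say how many animals or embryos went into a replicate.

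The mitochondrial ribosome translates the few proteins encoded by mitochondrial DNA, which are subunits of the oxidative phosphorylation complexes. Its RNAs are mitochondrial, whereas each of its proteins is encoded in the nucleus, made by cytosolic ribosomes and imported. Many nuclear genes are thus expressed for the building of 1 kind of particle. Many of these proteins descend from those of the bacterial ribosome, and others were added in the course of eukaryotic evolution and have no bacterial counterpart. Names and places do not always match. *Mrps30* and *Mrps18a* encode proteins that sit in the large subunit, and *Mrps36* encodes a protein now assigned to the 2-oxoglutarate dehydrogenase complex.

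The level of a gene is given in FPKM, a fragment count scaled by transcript length and by library size, which allows genes of different length to be set side by side. Values of the technical libraries were averaged first, and errors are the SD over replicates A and B (n = 2). Relative depth was taken as coverage per unit of FPKM. It was between 22.7 and 24.4 in A1, A2 and B1 and 6.83 in B2, which had 28.1% of the depth of B1. The lowest coverage of any member in B2 was still 25.7, so the values of members were not near the detection limit. All 9 neural progenitor markers examined were at 10 FPKM or more (*Pax6* lowest, 33.9 FPKM). Markers of other neural cells were also present, with 5 of 6 neuronal markers at 1 FPKM or more (*Tubb3* highest, 118 FPKM) and 4 of 5 of the oligodendrocyte lineage (*Olig1* highest, 282 FPKM). By their means none of 5 microglial or 4 endothelial markers reached 1 FPKM, although *Aif1* and *Cdh5* did so in B2 (1.204 and 1.002 FPKM). The summed level of 6 meningeal and mesenchymal markers was 620 and 603 FPKM in the libraries of A against 2399 and 2889 FPKM in those of B.

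All 69 members were detected in each of the 4 libraries, the lowest single value being 3.28 FPKM (*Mrps28* in B1). By their means, 68 members were at 10 FPKM or more, 31 at 50 or more and 10 at 100 or more. The median member had 46.2 FPKM, with a median of 46.7 in replicate A and 47.4 in replicate B, and the middle 50% of members lay between 32.2 and 72.2 FPKM. For comparison, the 10481 genes whose mean reached 1 FPKM lay around a median of 16.6 FPKM, and 63.3% were at 10 FPKM or more. Among those genes 40 of the 69 members were in the top 25% and 6 in the lower 50%. Together the members took 0.660% ± 0.0277 (SD, n = 2) of the summed TPM, the second deposited unit, in which the transcripts of every library add up to the same total. Since RNA was taken from whole cultures, a lower number of cells of a type and less RNA per cell cannot be told apart in any of these values.

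Members lay within a limited range of each other. The SD of their log2 levels was 1.04, against 1.44 over the 6636 genes at 10 FPKM or more, and 47 of 69 were within 2-fold of the members' median. Of the others, 12 were more than 2-fold below it and 10 more than 2-fold above it. The highest member was 62.4 times the lowest, and 20.4 times the lowest when *Mrps28* was left out.

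**Figure D1:**
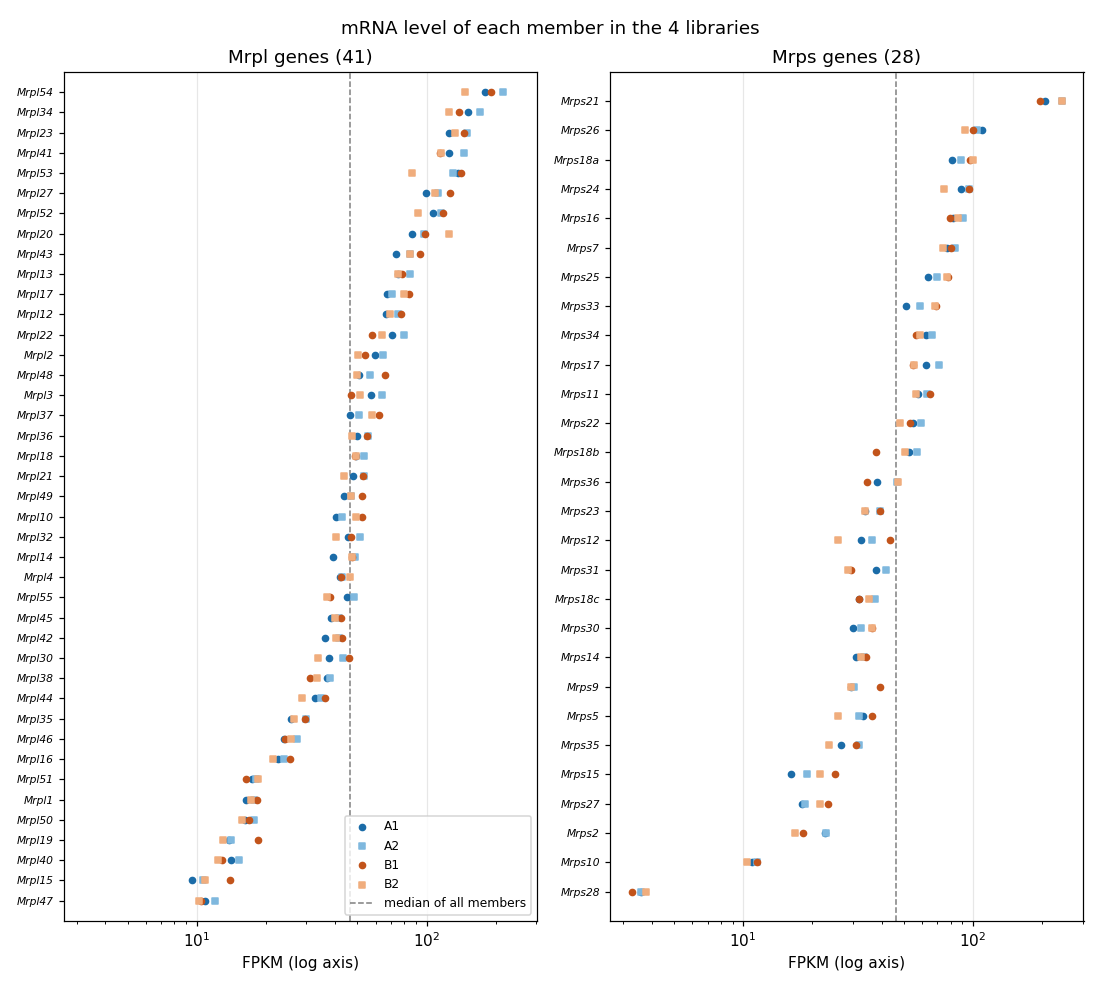
FPKM of each member (log axis) in the 4 libraries, in the order of the mean, with *Mrpl* genes on the left and *Mrps* genes on the right. The dashed line is the median of all 69 members (46.2 FPKM), and the 4 points of a gene mostly lie closer together than genes that are several places apart in the order.

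*Mrps21*, which encodes the homolog of bacterial protein bS21 and lies on the minus strand of chromosome 2 of rn6 (197974758 to 197982385), had the highest mean. Its level was 207 and 243 FPKM in A1 and A2 and 195 and 244 FPKM in B1 and B2, a mean of 222 ± 3.69 FPKM (SD, n = 2). The technical libraries of each replicate were further apart than the replicate means. *Mrpl54*, a large subunit protein with no bacterial homolog (chromosome 7, 11321057 to 11323577, plus strand), followed with 179 and 215 FPKM in A and 191 and 147 FPKM in B. *Mrps21* was above *Mrpl54* within each library, by least in B1, although the ranges of these top 2 genes over the libraries overlap.

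*Mrpl34*, the homolog of bacterial bL34 (chromosome 16, 19874034 to 19874769, plus strand), had 152 and 170 FPKM in A and 138 and 125 FPKM in B, with no overlap between the replicates. *Mrpl23*, a protein at the exit of the nascent-chain tunnel, had 139 ± 0.783 FPKM. *Mrpl41* and *Mrpl53*, both without a bacterial homolog, had 125 ± 14.1 and 124 ± 14.0 FPKM. The level of *Mrpl53* was 61.9 FPKM when computed from its coverage, which would take it out of the highest members, and that of *Mrps21* was 162 FPKM. The values of these 3 genes and *Mrpl34* overlapped in part. The *Mrps* genes after *Mrps21* were lower and close together. *Mrps26* had 101 ± 7.42 FPKM, *Mrps18a* 91.7 ± 9.80, *Mrps24* (homolog of bacterial uS3) 88.7 ± 4.81 and *Mrps16* (bS16) 84.4 ± 2.56, so that neighbours in this order overlapped.

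At the low end, *Mrps28*, named as the homolog of bacterial bS1 and located on the plus strand of chromosome 2 (95077577 to 95080825), had 3.59 and 3.61 FPKM in A and 3.28 and 3.76 FPKM in B. It was the only member below 10 FPKM, and its mean of 3.56 ± 0.0528 FPKM was well under every library of every other member. The next lowest were *Mrpl47* (homolog of uL29, at the tunnel exit; 10.9 ± 0.761 FPKM), *Mrps10* (uS10; 11.1 ± 0.200) and *Mrpl15* (uL15; 11.3 ± 1.64), which were not separated from each other. *Mrpl40* of the central protuberance had 13.7 ± 1.49 FPKM, *Mrpl19* (bL19) 14.9 ± 1.29 and *Mrpl50* 16.7 ± 0.483. In the small subunit, *Mrps2* (uS2) had 20.1 ± 3.64 FPKM, *Mrps27*, a pentatricopeptide repeat protein, 20.4 ± 2.97 and *Mrps15* (uS15) 20.4 ± 4.05.

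Most of the proteins are present once in each particle. The levels of their mRNAs were compared by subunit and by origin. The median was 47.6 FPKM over *Mrpl* and 39.1 FPKM over *Mrps* genes, a ratio of 1.22 (1.18 in replicate A and 1.27 in replicate B). With *Mrps18a* and *Mrps30* counted in the large subunit and *Mrps36* left out, the medians were 47.6 FPKM over 43 genes and 36.7 FPKM over 25 genes, a ratio of 1.30. The quartiles of the subunits overlapped widely, from 33.0 to 75.5 FPKM for *Mrpl* and from 32.1 to 64.5 FPKM for *Mrps*.

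The 40 members listed with a bacterial homolog had a median of 46.1 FPKM and the 26 listed without one 44.1 FPKM. *Mrps18a*, *Mrps18b* and *Mrps36* were in neither list, although *Mrps18a* and *Mrps18b* are related to bacterial protein S18. Within the subunits the order was not the same. In the large subunit the 25 genes with a homolog had a median of 49.5 FPKM against 40.7 FPKM for 17 without. In the small subunit the 15 with a homolog had 34.2 FPKM and the 9 without had 53.8 FPKM. These medians are descriptions of few genes with wide ranges, and no test was made. The lowest of the small subunit genes without a homolog was *Mrps27* at 20.4 FPKM and the highest *Mrps26* at 101 FPKM, while the 15 with a homolog held both the lowest and the highest member of all (*Mrps28* and *Mrps21*).

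Some members have particular places in the particle. *Mrpl12*, which forms the flexible stalk that recruits translation factors, had 66.7 and 74.9 FPKM in A and 77.1 and 69.4 FPKM in B. *Mrpl10*, which anchors the stalk, had 40.3 and 42.8 FPKM in A and 52.6 and 49.2 FPKM in B, so every library of B was above those of A. *Mrpl12* was 1.56 times *Mrpl10* by the means. Several copies of the *Mrpl12* product are known to bind to each *Mrpl10* product. Whether this bears on the levels of the mRNAs was not tested. The 4 genes listed here for the tunnel exit were spread from 10.9 to 139 FPKM. They ran from *Mrpl47* through *Mrpl45* (40.7 ± 0.786 FPKM), whose product lies on the side that faces the inner membrane, to *Mrpl23*. The 4 genes listed here for the central protuberance (*Mrpl38*, *Mrpl40*, *Mrpl46* and *Mrpl48*) were between 13.7 and 55.8 FPKM, with a median of 30.1. These short lists may leave out other members with the same place, so the values hold for the listed genes only.

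*Mrps12*, which encodes a protein of the decoding centre, had 32.6 and 36.3 FPKM in A, but 43.6 in B1 and 25.96 in B2. Its replicate means were nearly equal (34.6 ± 0.246 FPKM) because the 2 libraries of B lay on either side of those of A. *Mrps30*, whose product is part of the large subunit, had 33.8 ± 3.55 FPKM. *Mrps36*, the component of the 2-oxoglutarate dehydrogenase complex, had 41.6 ± 1.09 FPKM, within the middle 50% of the members.

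The rat has 3 paralogs related to bacterial protein S18, of which *Mrps18c* and *Mrps18b* encode small subunit proteins and *Mrps18a* a large subunit protein. *Mrps18a* (chromosome 9, 17238354 to 17254845, minus strand of rn6) had 81.0 and 88.6 FPKM in A and 97.3 and 99.97 in B. *Mrps18b* (chromosome 20, 3344870 to 3350929, plus strand) had 52.8 and 57.1 FPKM in A and 37.9 and 50.8 in B. *Mrps18c* (chromosome 14, 10440691 to 10446909, minus strand) had 31.9 and 37.6 FPKM in A and 32.0 and 35.4 in B. Each library of *Mrps18a* exceeded every library of the other two, and *Mrps18a* was 2.68 times *Mrps18c* by the means. *Mrps18b* was above *Mrps18c* in each library, and its lowest value (37.9 in B1) was close to the highest of *Mrps18c* (37.6 in A2).

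The promoters of the 3 paralogs are printed because the paralogs have related products and different levels. The windows are from RefSeq for the GRCr8 assembly, on the strand of the gene, and run from 250 bases before the annotated start to 50 bases from it, so that base 251 is the first of the gene. Capitals mark matches, on either strand, to the letters searched for 4 factors tied to nuclear genes for mitochondrial proteins or to promoters in general. The ETS factors, such as GABP, were searched as CCGGAAG and SP1 as GGGCGG. The YY1 letters are the 10 in capitals from base 251 of the *Mrps18a* window, and the NRF1 letters are the 10 in capitals from base 231 of the *Mrps18b* window, with any base allowed at the sixth of them. No match overlapped another in these windows. The windows lie at chr9:22367331-22367630 (*Mrps18a*, minus strand), chr20:2842756-2843055 (*Mrps18b*, plus strand) and chr14:9122857-9123156 (*Mrps18c*, minus strand).
Mrps18a: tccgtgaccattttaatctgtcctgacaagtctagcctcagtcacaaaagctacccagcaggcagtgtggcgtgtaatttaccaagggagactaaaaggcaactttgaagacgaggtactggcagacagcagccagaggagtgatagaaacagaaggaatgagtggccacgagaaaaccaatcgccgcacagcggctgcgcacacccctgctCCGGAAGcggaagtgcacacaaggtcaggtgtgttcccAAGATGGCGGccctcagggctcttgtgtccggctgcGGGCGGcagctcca
Mrps18b: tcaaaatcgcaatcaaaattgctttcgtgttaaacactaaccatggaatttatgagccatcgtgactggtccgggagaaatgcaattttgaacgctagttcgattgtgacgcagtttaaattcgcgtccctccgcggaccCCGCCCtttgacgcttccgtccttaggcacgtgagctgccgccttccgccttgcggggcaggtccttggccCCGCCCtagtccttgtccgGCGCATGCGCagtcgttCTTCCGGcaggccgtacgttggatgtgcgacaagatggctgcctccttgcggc
Mrps18c: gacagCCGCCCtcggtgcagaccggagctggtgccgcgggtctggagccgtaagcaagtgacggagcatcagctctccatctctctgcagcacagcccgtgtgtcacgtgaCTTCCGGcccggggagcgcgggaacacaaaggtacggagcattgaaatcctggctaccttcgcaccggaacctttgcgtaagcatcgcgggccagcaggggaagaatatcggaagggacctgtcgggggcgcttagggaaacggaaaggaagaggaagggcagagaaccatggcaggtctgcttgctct

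The *Mrps18a* window held the ETS letters at base 213, the YY1 letters at base 251, which is the annotated start itself, and the SP1 letters at base 287. In *Mrps18b* the NRF1 letters, a palindrome here, stood at base 231 and the ETS letters on the opposite strand at base 248, after 2 SP1 matches at bases 141 and 212. In *Mrps18c* there was an SP1 match at base 6 and an ETS match at base 112. Of all 33469 windows in the table, 4.25% held the NRF1 letters, 8.75% the ETS letters, 0.980% the YY1 letters and 33.1% the SP1 letters. A match is a run of letters and not a measured binding site. Of genes for these factors in the list of regulators, *Nrf1* was at 8.81 FPKM, *Gabpa* at 10.3, *Gabpb1* at 12.7 and *Yy1* at 31.0. Windows were found for 55 of 69 members (79.7%), under the minimum of 80% set for a statement over the members, so no share of members is given for any motif.

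*Mrpl34* and *Mrpl54*, both among the highest 3 members, held no match to these 4 motifs, nor to the TATA box (TATAAA, in 14.2% of all windows). A further 10 members with a window held none of the 5 either. They included the low *Mrpl47*, *Mrps15* and *Mrps2*, and also *Mrpl18* (50.2 FPKM), *Mrpl22* (68.0 FPKM) and *Mrps25* (72.2 FPKM). The highest member, *Mrps21*, for which 2 windows were searched, had ETS and TATA matches. The windows of *Mrpl34* and *Mrpl54* are printed to show the longest run of letters that they share, of 19 bases, which was looked for after the windows had been read and is marked in capitals. It occurred, on either strand, in 6 of all windows. The windows lie at chr16:18186197-18186496 (*Mrpl34*, plus strand) and chr7:9103275-9103574 (*Mrpl54*, plus strand).
Mrpl34: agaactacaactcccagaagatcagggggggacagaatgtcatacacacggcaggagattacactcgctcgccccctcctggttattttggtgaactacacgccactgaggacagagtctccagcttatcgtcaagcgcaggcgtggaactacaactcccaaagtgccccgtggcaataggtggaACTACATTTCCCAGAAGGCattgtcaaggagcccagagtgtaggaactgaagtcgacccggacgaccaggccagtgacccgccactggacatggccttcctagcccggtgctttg
Mrpl54: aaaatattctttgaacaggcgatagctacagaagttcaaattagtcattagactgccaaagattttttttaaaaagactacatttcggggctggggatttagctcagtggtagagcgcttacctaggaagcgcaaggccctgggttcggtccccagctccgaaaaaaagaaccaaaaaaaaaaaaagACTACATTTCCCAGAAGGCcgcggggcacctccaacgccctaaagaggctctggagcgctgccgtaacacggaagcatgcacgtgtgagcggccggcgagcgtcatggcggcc
The run starts at base 186 of the *Mrpl34* window and at base 188 of the *Mrpl54* window, 65 and 63 bases before the annotated starts. As the run was picked from these windows, its presence in both is not a finding about highly expressed members.

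The genes for mitoribosomal proteins that carry other names lay in the range of the members, with a higher median. Of 7 names listed, which include the older and the newer name of 1 gene, 6 were in the tables. Their median was 73.8 FPKM, above the upper quartile of the members (72.2 FPKM), and 5 of the 6 were at 50 FPKM or more. *Aurkaip1* was highest at 169 ± 10.7 FPKM, followed by *Gadd45gip1* (86.2 ± 5.96), *Chchd1* (76.0 ± 3.07), *Ict1* (71.5 ± 1.65), which retains a peptide-release function, and *Dap3* (63.7 ± 8.12), and *Ptcd3* was lowest at 25.04 ± 1.12 FPKM.

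Genes that build or run the mitochondrial ribosome without being part of it were lower. The assembly list holds 27 names, some of them older and newer names of the same gene, and the 20 that were in the tables had a median of 12.9 FPKM, from 2.31 for *Ybey*, an rRNA endonuclease, to 72.2 ± 14.8 for the RNA helicase *Dhx30*. The 13 of 14 listed translation factors had a median of 14.2 FPKM, with the elongation factor *Tufm* at 86.5 ± 10.7 and its exchange factor *Tsfm* at 9.59 ± 1.89. Among 4 genes for transcription of mitochondrial DNA (median 14.6 FPKM) *Tfam*, which also packages that DNA, had 39.9 ± 1.31 FPKM and the polymerase *Polrmt* 17.98 ± 2.91. The 10 regulators of nuclear genes for mitochondrial proteins had a median of 11.5 FPKM, and the coactivators *Ppargc1a* and *Ppargc1b* were at 1.75 and 0.249 FPKM. None of the genes tested in these 5 lists (6, 20, 13, 4 and 9 genes) differed between replicates A and B by the criteria given with the replicates. Over all 10481 genes tested the share was 6.15%. The lists are too short for this to show that their genes were steadier than others.

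Against the other large protein assemblies the order was clear in both replicates. The 83 cytosolic ribosomal protein genes had a median of 1120.3 FPKM, and the members' median was 0.0413 times that (0.0476 in replicate A and 0.0379 in replicate B). The list for nuclear oxidative phosphorylation held 81 gene names, of which 75 were at 1 FPKM or more. Of the others, *Cox6c-ps1*, a pseudogene by its name, was at 0 FPKM. The median of the 81 was 188 FPKM, and the members' median was 0.246 times that. Over names whose mean reached 1 FPKM, the members' median was 0.238 times that of the list. Cytosolic ribosomal protein genes took 16.5% ± 2.30 (SD, n = 2) of the summed TPM. The middle 50% of the members did not overlap with those of either list, which began at 885 and 107 FPKM.

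**Figure D2:**
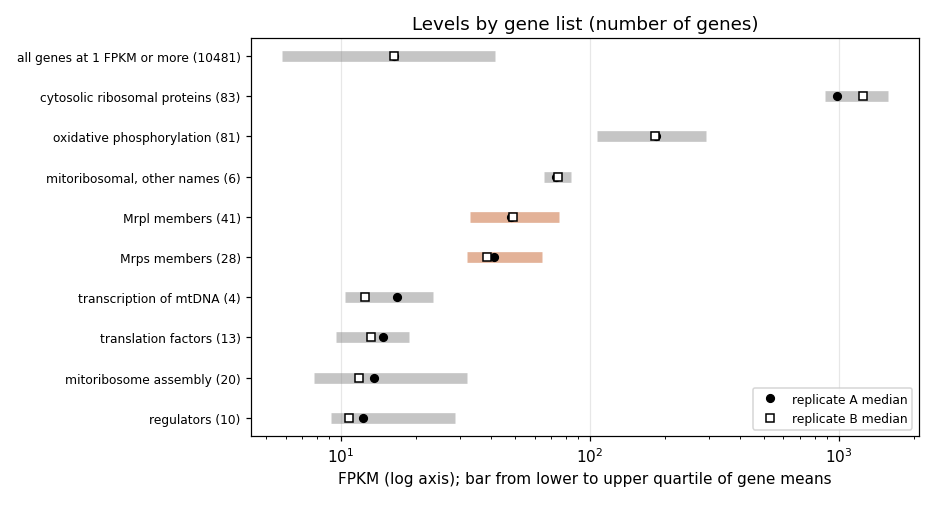
FPKM (log axis) of gene lists of the mitochondrial ribosome and of 3 comparison sets. Bars run from the lower to the upper quartile of the gene means, and symbols are the medians in replicates A and B. The members lie above the assembly genes and translation factors (medians of 12.9 and 14.2 FPKM) and below oxidative phosphorylation (188 FPKM) and cytosolic ribosomal proteins.

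The replicates were compared next. A gene was counted as differing between A and B when its mean was at or above 1 FPKM, its difference was at least 1 on the log2(FPKM + 1) scale and the libraries of A and B did not overlap. No member met these criteria (0 of 69), beside 6.15% of the 10481 genes tested (4.58% higher in B and 1.57% higher in A). With the size lowered to 0.58 there was again no member, beside 16.5% of genes. With 2 cultures of 1 condition no test was made, and the values describe the spread between these cultures. The median size of the members' differences was 0.129 on the log2(FPKM + 1) scale, against 0.215 over the genes at 10 FPKM or more, and the 90th percentile was 0.303 for members and 0.670 for those genes. In the other lists the median size was 0.113 for the mitoribosomal genes with other names, 0.123 for the assembly genes, 0.149 for the oxidative phosphorylation genes and 0.175 for the translation factors. It was 0.209 for the regulators, 0.241 for the genes of mitochondrial transcription and 0.316 for the cytosolic ribosomal protein genes. A size of 0.3 or more was seen in 8 members (11.6%), beside 41.7% of all genes tested.

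**Figure D3:**
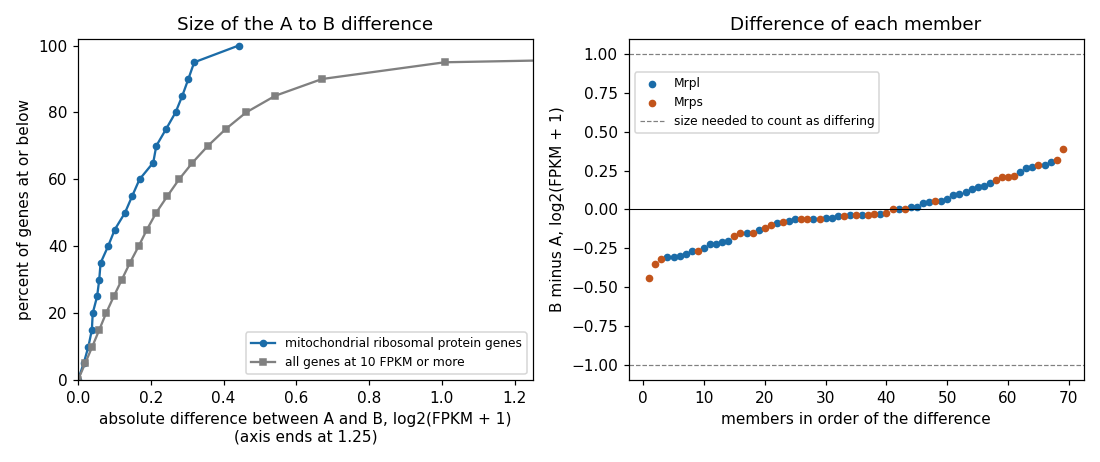
Left, the cumulative percent of genes (in steps of 5) against the size of the difference between replicates A and B on the log2(FPKM + 1) scale, for the 69 members and for the 6636 genes at 10 FPKM or more. Right, the signed difference of each member in ascending order. All members lie between -0.44 and 0.39, inside the dashed lines at 1 that mark the size needed to be counted.

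Members did not move in 1 direction. The difference, B minus A on the log2(FPKM + 1) scale, was above 0 in 29 members (42.0%, beside 46.2% of genes tested) and below 0 in 40. Its median was -0.04 over members and -0.03 over all genes tested, and it was 0.08 over members when library B2 was left out. Both libraries of B were above both of A in 13 members, beside 28.1% of genes, and both of A above both of B in 16, beside 32% of genes. The libraries of the other 40 members overlapped. The cytosolic ribosomal protein genes had a median difference of 0.32 between the same libraries and the oxidative phosphorylation genes one of 0.03. Among the progenitor markers *Fabp7* had 16800 and 18557 FPKM in A against 6520 and 5485 in B, and *Sox2*, *Hes5* and *Hes1* were also lower in both libraries of B than in those of A. *Sox2* had 558 and 592 FPKM in A against 406 and 356 in B. The other 5 did not separate the replicates in this way. The meningeal and mesenchymal sums given with the libraries were higher in B. Their part in the differences of members was not tested.

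*Mrps31*, a small subunit protein without a bacterial homolog (chromosome 16, 74467874 to 74496553, minus strand), had the largest difference. Its level was 37.8 and 41.7 FPKM in A and 29.3 and 28.6 FPKM in B, a difference of -0.44 on the log2(FPKM + 1) scale. *Mrps2* had 22.6 and 22.8 FPKM in A and 18.2 and 16.9 FPKM in B (-0.35), and *Mrps18b*, whose values stand above, followed (-0.32). In these 3 genes both libraries of A were above both of B. In the other direction, *Mrps15* (chromosome 5, 144054452 to 144065045, plus strand) had 16.2 and 18.9 FPKM in A and 25.1 and 21.5 FPKM in B (0.39). *Mrps33*, without a bacterial homolog, had 51.1 and 58.9 FPKM in A and 69.2 and 68.3 FPKM in B (0.32). *Mrpl37*, of the large subunit, had 46.4 and 50.7 FPKM in A and 62.1 and 58.1 FPKM in B (0.30). None of these differences reached 0.58, and the median size was close in the *Mrpl* (0.129) and the *Mrps* genes (0.134).

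The order of the members was similar in the replicates. Members share their libraries and are not independent points. Over all 69, Spearman's rho between A and B was 0.980, and the lowest value for any pair of libraries was 0.966. The largest shift was of 11 places, for *Mrpl10*. In 40 members (58.0%) the technical libraries were further apart than the replicate means, beside 39.9% of all genes at 1 FPKM or more.

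The technical libraries of a replicate showed shared directions over the members. The FPKM was higher in A2 than in A1 in 66 of 69 members, beside 57.9% of genes tested. In TPM this was so in 57 members, beside 40.5% of genes. The median log2 difference of A2 from A1 was 0.13 over members and 0.03 over all genes in FPKM, and 0.05 and -0.04 in TPM. The shift was not particular to the members, as the median in FPKM was 0.20 over the cytosolic ribosomal protein genes and 0.18 over the oxidative phosphorylation genes. In replicate B, B1 was higher than B2 in 49 members, beside 50.9% of genes (46 members, beside 48.2%, in TPM).

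Members lie on most chromosomes of rn6. There were 12 on chromosome 1 and 10 on chromosome 10, which hold 2370 and 1436 of the gene names, and 7 each on chromosomes 4 and 9. A gene was called head-to-head when a gene on the opposite strand started up to 1000 bp upstream of it with no overlap. This was so for 18 of 69 members (26.1%), beside 6.55% of the 17311 gene names with a position that recurred between tables and 11.2% of those at 10 FPKM or more. Names with more than 1 such position, among them *Mrpl1* and *Mrpl36*, were counted once. The *Mrpl* genes contributed 13 of 41 and the *Mrps* genes 5 of 28. The share was 20.3% of members and 3.60% of all genes when only starts up to 300 bp apart were taken. No test was made of these shares.

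The closest pair was *Mrps18c* with *Helq*, a DNA helicase gene, whose first bases lie 72 bp apart. *Mrps27* lies 91 bp from *Ptcd2*, a pentatricopeptide repeat gene, *Mrpl21* 123 bp from the helicase gene *Ighmbp2*, *Mrpl43* 128 bp from *Peo1*, the helicase of mitochondrial DNA replication, and *Mrpl50* 138 bp from the zinc finger gene *Zfp189*. In all 5 the member was higher, for example 84.2 ± 7.16 FPKM for *Mrpl43* and 14.4 ± 1.2003 for *Peo1*, and 34.2 ± 0.736 FPKM for *Mrps18c* and 4.25 ± 0.361 for *Helq*. Other neighbours with mitochondrial products were *Sars2*, the mitochondrial seryl-tRNA synthetase, 194 bp from *Mrps12*, and *Ndufb5*, a subunit of complex I, 266 bp from *Mrpl47*. *Mrpl49* lies 205 bp from *Fau*, which encodes a cytosolic ribosomal protein and had 1275 ± 158 FPKM against 47.6 for the member, and *Mrpl32* lies 210 bp from the proteasome gene *Psma2* (240 ± 2.73 against 46.0 FPKM).

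Over the 18 members the median distance was 206 bp. The member was higher than its neighbour in 12, and the neighbours had a median of 17.7 FPKM. Across these pairs the Spearman correlation of the levels of member and neighbour was 0.061, a description of 18 pairs measured in the same libraries, of which 1 pair of members is counted from both sides. No neighbour differed between replicates A and B, beside 6.15% of the 10481 genes tested. With 18 pairs this count cannot be told apart from that share. Members with a head-to-head neighbour had a median of 46.1 FPKM and the 51 without one 51.8 FPKM. The second median is the value of *Mrpl36*, a sum of 2 rows with identical values of 25.9 FPKM. The next lower member without a neighbour was *Mrpl14* (45.7 FPKM), so the order of the medians depends on how *Mrpl36* is counted.

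**Figure D4:**
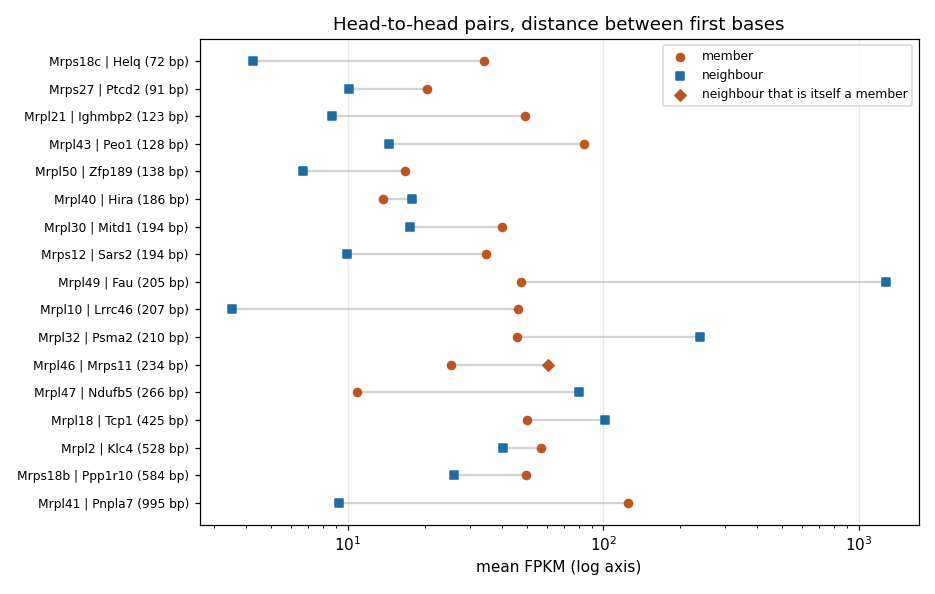
Mean FPKM (log axis) of each head-to-head member and its neighbour, with the distance between their first bases, closest pair at the top. The neighbour lies on either side of the member, from *Lrrc46* (3.52 FPKM, beside *Mrpl10*) to *Fau* (1275 FPKM, beside *Mrpl49*).

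In 1 pair both genes are members, 1 of each subunit. *Mrpl46* (chromosome 1 of rn6, 140469558 to 140477634, minus strand) and *Mrps11* (140477868 to 140487248, plus strand) start 234 bp apart. *Mrpl46*, of the central protuberance, had 24.0 and 27.3 FPKM in A and 24.2 and 25.6 FPKM in B. *Mrps11*, the homolog of uS11, had 57.8 and 63.1 FPKM in A and 64.9 and 56.2 FPKM in B. *Mrps11* was above *Mrpl46* in every library. Neither differed between the replicates, with differences of -0.04 and 0.00 on the log2(FPKM + 1) scale.

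The window of *Mrpl46* is printed because it spans the starts of both genes. It lies at chr1:142116981-142117280 of GRCr8 on the minus strand, where RefSeq also places the starts 234 bp apart, with the first base of *Mrps11* at base 17 of the window and that of *Mrpl46* at base 251. Capitals mark the YY1 letters at base 275, within the *Mrpl46* transcript, and the letters of a TATA box on the strand of *Mrps11* at base 94.
Mrpl46: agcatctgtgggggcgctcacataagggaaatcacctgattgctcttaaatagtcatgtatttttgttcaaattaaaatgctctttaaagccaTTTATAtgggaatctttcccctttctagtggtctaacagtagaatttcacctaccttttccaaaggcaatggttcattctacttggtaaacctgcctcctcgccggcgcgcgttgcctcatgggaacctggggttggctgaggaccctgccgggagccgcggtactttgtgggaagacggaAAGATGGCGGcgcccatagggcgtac
No NRF1, ETS or SP1 letters were in this window. The TATA letters lie 82 bases before the start of *Mrps11* when counted in its own window.

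For some members the tables give reason to read the level with care. Coverage per FPKM, which is nearly constant within a library, departed by 5% or more from the library's median in 5 members (7.25%), against 3.17% of all genes with a value in every library. *Mrpl53* is listed over 866615 bp of chromosome 4, across several other genes, and *Mrpl30* over 87878 bp of chromosome 9. In both the coverage corresponded to 0.50 of the usual, so that a level computed from coverage was 61.9 FPKM for *Mrpl53* in place of 124. The same calculation gave 162 FPKM for *Mrps21*, 15.1 for *Mrps27* and 39.7 for *Mrpl14*, and *Mrps21* then fell below *Mrpl54* (183 FPKM).

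*Mrpl1* is listed both on chromosome 14 (7.64 FPKM) and on chromosome 8 (9.79 FPKM), and *Mrpl36* at 2 places on chromosome 1 with identical values of 25.9 FPKM in the mean. Their levels here, 17.4 and 51.8 FPKM, are sums. RefSeq for GRCr8 names 40 pseudogenes for 23 of the members, 9 of them for *Mrpl30*, and how reads shared with such copies were counted is not given in the sources used here. A gene on the opposite strand overlapped 7 members (10.1%, against 8.87% of all genes), among them *Mrps18a*, *Mrps7* and *Mrpl47*, and the tables do not show whether strand was used in counting.

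Levels tended to be higher at shorter loci. In the 67 members with 1 position, the Spearman correlation of locus length with FPKM was -0.291. Over the 6536 genes at 10 FPKM or more with 1 position, also not selected by coverage, it was -0.275. In the 62 members with 1 position and the usual coverage it was -0.342. Of these 62, the 19 members spanning less than 4000 bp had a median of 61.9 FPKM and the 43 longer ones 40.3 FPKM. The locus includes introns, and transcript length is not in the tables.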

How the data were processed

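PolyA RNA-seq of rat neural progenitors was analysed from 4 libraries, grouped by their labels. According to the methods, STAR was used by the authors to align reads to the rn6 build. The submitters' processing notes also name cutadapt, HISAT and StringTie, with versions not given in the sources used here. The deposited FPKM are fragments scaled by transcript length and depth, and were the main measure. The methods name Rsubread and a second R package as the source of FPKM, whereas the layout is that of StringTie. The deposited TPM served as an alternative. The deposited coverage (mean read depth, unscaled) was used for relative depth and, as an alternative, for levels, and total reads were not used.

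FPKM was summed over rows of a gene name and averaged within replicates A and B (mean ± SD, n = 2). The pseudocount was 1, and fold changes on the log2(FPKM + 1) scale understate the change of low genes. No p-value was computed. The counting was tested on simulated data. Positions were taken where they recurred in at least 3 of the 4 tables. The members and all gene lists were chosen with earlier results of these data known. Named genes were the 5 highest and 5 lowest of *Mrpl* and *Mrps*, the 3 largest differences in each direction between replicates whose libraries do not overlap, members with special roles, more than 1 row or 1 value far from the others, and the 5 closest head-to-head pairs. Other members and neighbours, such as *Mrps11*, *Mrpl46* and *Mrpl30*, were named after their values were seen. *Mrpl9*, *Mrpl11*, *Mrpl24*, *Mrpl28*, *Mrpl33*, *Mrpl39*, *Mrpl57* and *Mrps6* were not analysed here, nor were the 2 Start-seq samples. Promoter windows came from RefSeq (GRCr8), and its coordinates were not mixed with rn6. Tables were handled with pandas 2.3.3 and numpy 2.4.6 under Python 3.11.15, rank correlations came from scipy 1.17.1, and plots from matplotlib 3.10.9.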

Additional observations from a re-analysis of the deposited data

Results flagged for a closer look

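Of 72 values examined over the 4 libraries, 3 had 1 library far from the others (by Dixon's 95% critical value for 4 values). Chance flags about 1 in 20 such groups of independent samples, and these libraries are technical pairs. *Mrpl14*, which encodes the homolog of bacterial uL14, had 39.3 FPKM in A1, against 47.2 to 48.7 FPKM in the other libraries. *Mrps9*, the homolog of uS9, had 39.6 FPKM in B1, against 29.4 to 30.4 FPKM in the others, including the second library of the same replicate. The depth of B2 was 6.83 in coverage per FPKM, against 22.7 to 24.4 in the others.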

How the results depend on the processing

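The 9 main results were recomputed in 58 alternatives, each of 1 result in 1 other setting. Of these, 49 left the value within 1 SD between replicates or, for counts, within 1.5 times. For the median difference between A and B the spread allowed was 0.124. Some alternatives could not move a value, such as the filter at 1 FPKM for the members' median, so the 49 are not a measure of stability. The median level became 77.4 in TPM, which is another unit, and 47.1 FPKM without library B2. It was 46.7 to 47.4 FPKM when replicate A or B was left out. The ratio of members with to members without a bacterial homolog, 1.04, was 1.05 to 1.11, and the ratio to oxidative phosphorylation genes 0.253 to 0.260, when a replicate was left out. That ratio was 0.238 over genes whose mean reached 1 FPKM. The ratio of *Mrpl* to *Mrps* was 1.30 with subunits taken from structure, a setting chosen after seeing the data, as were levels from coverage and the TPM counts of technical libraries. No member was counted as differing between A and B in any of 8 settings, in which between 329 and 1732 genes in all were counted. The count of all genes was 645 of 10481 in the main setting. It fell to 329 of 6636 at a mean of 10 FPKM or more, where fewer genes were tested. At a difference of 0.58 it rose to 1732 of 10481. Head-to-head members numbered 14 to 19. For 37 named genes, 16 of 74 alternatives (without library B2, or from coverage) moved the level by over 1 SD, 12 of them without library B2. Leaving out 1 of 2 replicates cannot move a mean by 1 SD. Those settings therefore say nothing about the stability of single genes and little about that of the main results. The median size of the difference between A and B was 0.601 of that of genes at 10 FPKM or more, and 0.723 without library B2. No paired analysis was possible because there is 1 condition and replicates A and B are the groups compared. Values rest on 2 cultures, and the low depth of B2 limits replicate B.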
